A study of Mus musculus with 12 samples.

Results

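Axon guidance ligands and receptors are the secreted and membrane-bound cues, and the cell surface proteins that read them, through which growing axons find their way. Their genes were taken by symbol from the count table: semaphorins of classes 3 to 7, plexins, neuropilins, Eph receptors, ephrins, Slits, Robos, netrins, netrin-Gs, the Unc5 receptors and Dcc. A minimum of 15 reads summed over the 12 libraries was also required. The 71 members found are part of 17823 genes with that many reads and of 24079 genes in all. All 71 rows with a matching symbol met the minimum, the fewest reads being 89 for Plxna4os1 and the most 323386 for Epha4. They comprise 37 ligands, 33 receptors and 1 antisense RNA, Plxna4os1, which the symbol pattern took in with the plexins and which is neither.

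RNA bound to tagged ribosomes was sequenced from the hippocampus of wild-type and Fmr1-/y mice, a model of fragile X syndrome in which the X-linked gene for the RNA-binding protein FMRP is disrupted in every cell. All mice were males aged 2 to 6 months. They also all carried Wfs1-CreERT2, a transgenic Cre recombinase driven by regulatory DNA of Wfs1, a gene enriched in CA1 pyramidal neurons, and RiboTag, an allele that gives cells with active Cre an HA tag on the ribosomal protein Rpl22. Cre was activated by 3 days of tamoxifen and the tissue was taken 1 week later. Each genotype had 6 libraries, and 4 to 6 mice were pooled for every library, so that the spread between libraries is a spread between pools. Reads counted on genes ranged from 39400980 to 55745464 across wild-type libraries and from 43106629 to 65565479 across Fmr1-/y libraries. For Fmr1 itself the wild-type libraries held between 1971 and 2608 reads, and the Fmr1-/y libraries held none except for 1 read in replicate 2.

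Semaphorins signal through plexins, and most secreted class 3 semaphorins need a neuropilin as a co-receptor. Ephrins are held at the membrane by a lipid anchor (A type) or a transmembrane segment (B type), and binding to Eph receptor tyrosine kinases on a neighbouring cell can signal into both cells. Slits repel axons through Robo receptors, while netrins attract through Dcc and repel through Unc5 receptors. In the adult hippocampus many of these proteins sit at synapses, where they act on dendritic spines and on plasticity.

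Marker genes of the labelled cell type and of other cells were read in the pulldown libraries. No input RNA is among these libraries, so enrichment over the whole hippocampus was not measured here. The 6 CA1 pyramidal markers (Wfs1, Slc1a1, Fibcd1, Mpped1, Pou3f1 and Camk2a) had reads in every library, and their summed level was 7636 to 9385 CPM (counts scaled to a common library size) in wild-type libraries, with a median of 8804, and 7344 to 8746 in Fmr1-/y libraries, with a median of 7983. Wfs1, whose regulatory DNA drives the Cre, had a median of 1298 CPM in wild-type libraries against 1039 CPM in Fmr1-/y libraries. Markers of other cells were present too. The 5 choroid plexus markers, led by Ttr, summed to 6374 to 11856 CPM in wild-type libraries against 8299 to 17487 CPM in Fmr1-/y libraries, and Fmr1-/y replicate 1 was the highest. That library was also the highest for astrocyte, microglial, endothelial and fibroblast markers, and no marker of any list was at 0 in any library. Of the 5 choroid plexus markers 3 were higher in Fmr1-/y libraries at an unadjusted p under 0.05. So were 4 of 7 endothelial and mural, 2 of 5 astrocyte and 2 of 5 fibroblast markers, whereas 2 of 6 CA1 pyramidal markers were lower. Over all genes 4.29% were higher and 3.67% lower at that p. Oligodendrocyte, oligodendrocyte precursor, microglial, interneuron and dentate granule markers held 0 in either direction. Of the CA2 markers 1 was higher and 1 lower, and of the CA3 markers 1 was higher. Summed oligodendrocyte markers had a median of 1315 CPM in wild-type libraries against 1167 CPM in Fmr1-/y libraries. In such pooled pulldowns fewer cells of a type, less RNA per cell and differing carry-over from untagged cells cannot be told apart.

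The DNA just upstream of 4 members is shown because Sema3e, Robo1 and Epha6 had the smallest p-values of all members and Epha7 had the highest level per length among the members that were lower. Each line gives the 250 bases before the annotated transcript start on the strand of the gene (RefSeq, GRCm38.p6), in lower case, with capitals marking each GC box, the letters GGGCGG on either strand, which is a binding motif of Sp1-family factors.
Sema3e, chr5:14025026-14025275, plus strand: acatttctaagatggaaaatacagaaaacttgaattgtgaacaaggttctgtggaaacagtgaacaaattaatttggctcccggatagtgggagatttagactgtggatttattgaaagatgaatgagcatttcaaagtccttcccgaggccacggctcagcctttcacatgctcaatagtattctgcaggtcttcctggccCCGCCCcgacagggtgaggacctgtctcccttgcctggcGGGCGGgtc
Robo1, chr16:72662899-72663148, plus strand: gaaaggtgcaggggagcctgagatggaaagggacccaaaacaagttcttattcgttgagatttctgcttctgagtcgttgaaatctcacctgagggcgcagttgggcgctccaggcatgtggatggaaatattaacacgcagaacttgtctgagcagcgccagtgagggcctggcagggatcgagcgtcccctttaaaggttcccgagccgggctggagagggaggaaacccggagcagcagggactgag
Epha6, chr16:60605532-60605781, minus strand: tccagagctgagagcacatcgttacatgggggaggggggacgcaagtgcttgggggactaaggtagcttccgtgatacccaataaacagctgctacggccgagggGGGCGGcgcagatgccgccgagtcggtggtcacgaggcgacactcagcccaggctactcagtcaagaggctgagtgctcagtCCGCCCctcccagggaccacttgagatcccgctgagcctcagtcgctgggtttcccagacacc
Epha7, chr4:28812881-28813130, plus strand: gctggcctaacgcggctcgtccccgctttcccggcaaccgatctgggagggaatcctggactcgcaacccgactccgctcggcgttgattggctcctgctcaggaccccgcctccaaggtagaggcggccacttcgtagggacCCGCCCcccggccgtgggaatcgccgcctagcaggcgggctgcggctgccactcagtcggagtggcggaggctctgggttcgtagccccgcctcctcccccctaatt
The Sema3e and Epha6 windows each held 2 GC boxes, the Epha7 window held 1 and the Robo1 window held 0. Their CpG counts were 7 for Sema3e, 11 for Robo1, 15 for Epha6 and 25 for Epha7, beside a median of 16 over the 60 members with a window. The annotated starts used for Robo1, Epha6 and Epha7 lie inside the outer limits of these genes, so that the windows of Robo1 and Epha6 and the end of the Epha7 window overlap the annotated gene.

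Together the members took 0.36% to 0.44% of the reads of a library. Over all libraries 66.1% of their reads fell on receptors, with 30.9% on Eph receptors and 19.7% on plexins. A mean of at least 10 CPM was reached by 50 members, at least 100 CPM by 14, and 4 stayed under 1 CPM (Epha1, Epha2, Efna4 and Plxna4os1). Levels of different genes were compared only as CPM per kilobase of merged exons, which 70 members have. On that scale Epha4, an Eph receptor that binds ephrins of both types, was the highest with 70.1 CPM per kilobase, next to Efnb3 (ephrin-B3) with 69.4. Sema7a, a semaphorin anchored by a lipid, followed with 54.3. The levels of Epha7 (33.3), Sema6b (32.3) and Unc5a (32.0) lay close together, and Sema4f (22.8), Slit1 (20.3), Plxna1 (20.1) and Nrp1 (19.1) completed the 10 highest. The lowest with a length was Epha1 with 0.12. Nrp1 reached 51.3 when the longest single transcript was used as its length, so its place among the 10 depends on the length chosen.

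**Figure D1:**
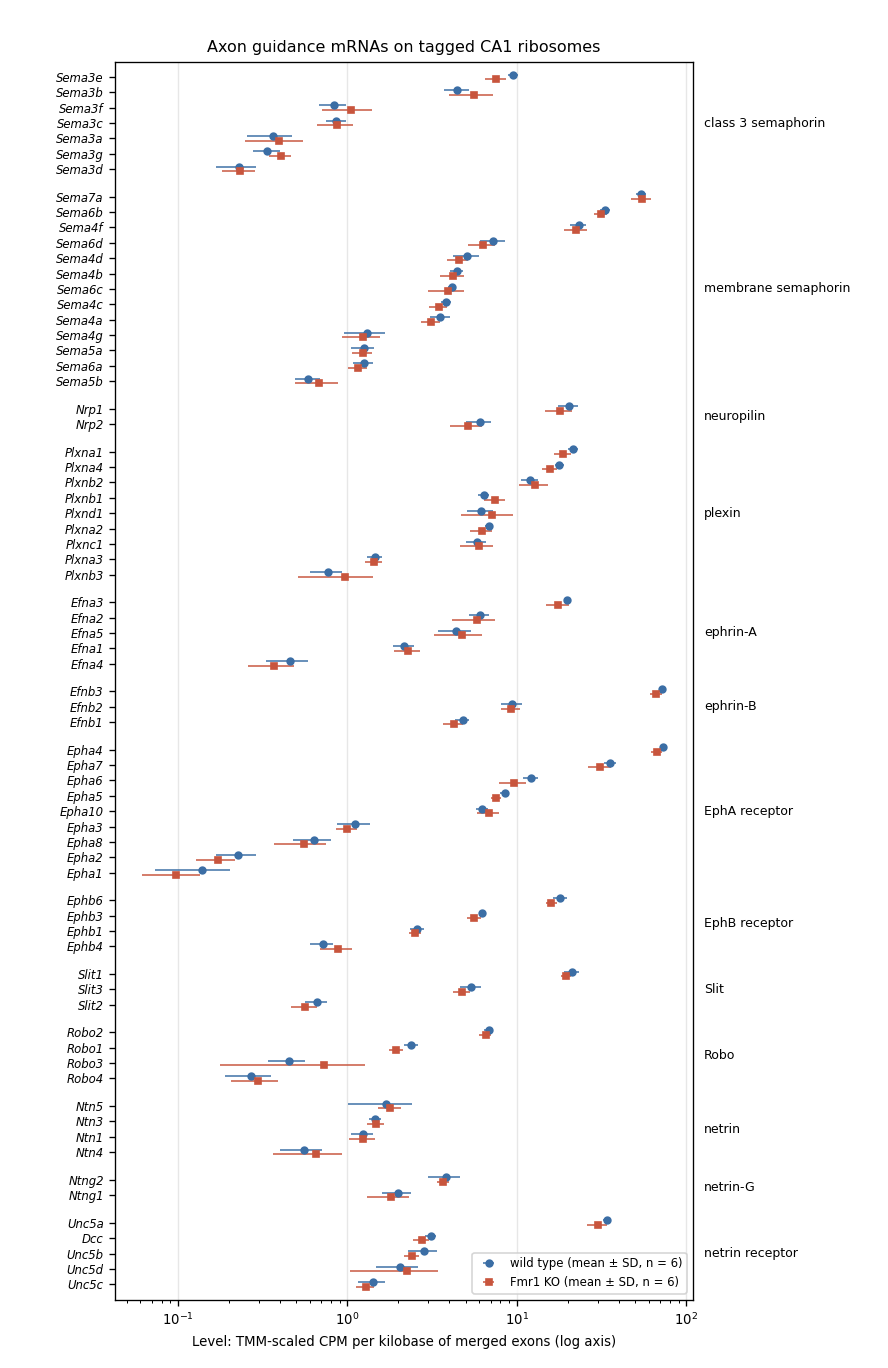
Level of the 70 members with an exon length, as TMM-scaled CPM per kilobase of merged exons on a log axis, grouped by family, with circles for wild-type and squares for Fmr1 KO (Fmr1-/y) means and bars for the SD over 6 libraries. Levels run from 0.12 for Epha1 to 70.1 for Epha4, while the 2 genotypes of a gene lie side by side.

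Whether the loss of FMRP goes with altered ribosome-bound levels of these mRNAs was asked with edgeR's quasi-likelihood test over all 17823 genes. No member had an adjusted p under 0.05, whereas 4 genes, or 0.0224%, did so among all genes tested. In DESeq2, 1 member (Sema3e) passed the same threshold, where 0.471% of all genes passed. At an unadjusted p under 0.05, 11 members (15.5%) were lower in Fmr1-/y libraries, beside 3.67% of all genes, and 2 members (2.82%) were higher, beside 4.29%. The lower members were Sema3e, Robo1, Epha6, Epha5, Plxna1, Plxna4, Ephb6, Dcc, Epha7, Ephb3 and Unc5a, and 10 of these 11 are receptors. The higher members were Plxnb1 and Sema3b. Without wild-type replicate 2 only 6 members were lower, and the share of all genes in such left-out fits is not given here. The higher count was 1 without wild-type replicate 2, 3 or 6 or Fmr1-/y replicate 5, and 4 without Fmr1-/y replicate 2 or 6. Among the 50 members with a mean of at least 10 CPM, which include all 13 of these genes, 22% were lower, beside 4.75% of all genes at that level, and 4.0% were higher, beside 4.17%.

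Fold changes were below 0 in 47 of the 71 members, or 66.2%, where 48.6% of all genes were below 0. With a mean of at least 10 CPM they were below 0 in 41 of 50 members, or 82.0%, beside 50.8% of all genes at that level. The median log2 fold change was -0.09 over the members and 0.0042 over all genes. For the 33 receptors it was -0.16, with 10 lower and 1 higher at an unadjusted p under 0.05. For the 37 ligands it was -0.06, with 1 lower and 1 higher. Receptors had more reads for the test to use, with a median of 47.1 CPM against 15.6 CPM for ligands. At a mean of at least 10 CPM the medians lay closer, at -0.16 for 25 receptors, 19 of them below 0, and -0.11 for 25 ligands, 22 of them below 0. No member had libraries of one genotype wholly apart from the other, as 0.623% of all genes did. The fold changes were small, and the 95% interval of the log2 fold change lay within 1.5-fold either way in 54 members and within 2-fold in 68, and the 3 that reached past 2-fold were Plxna4os1, Epha1 and Robo3, all of low level.

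**Figure D2:**
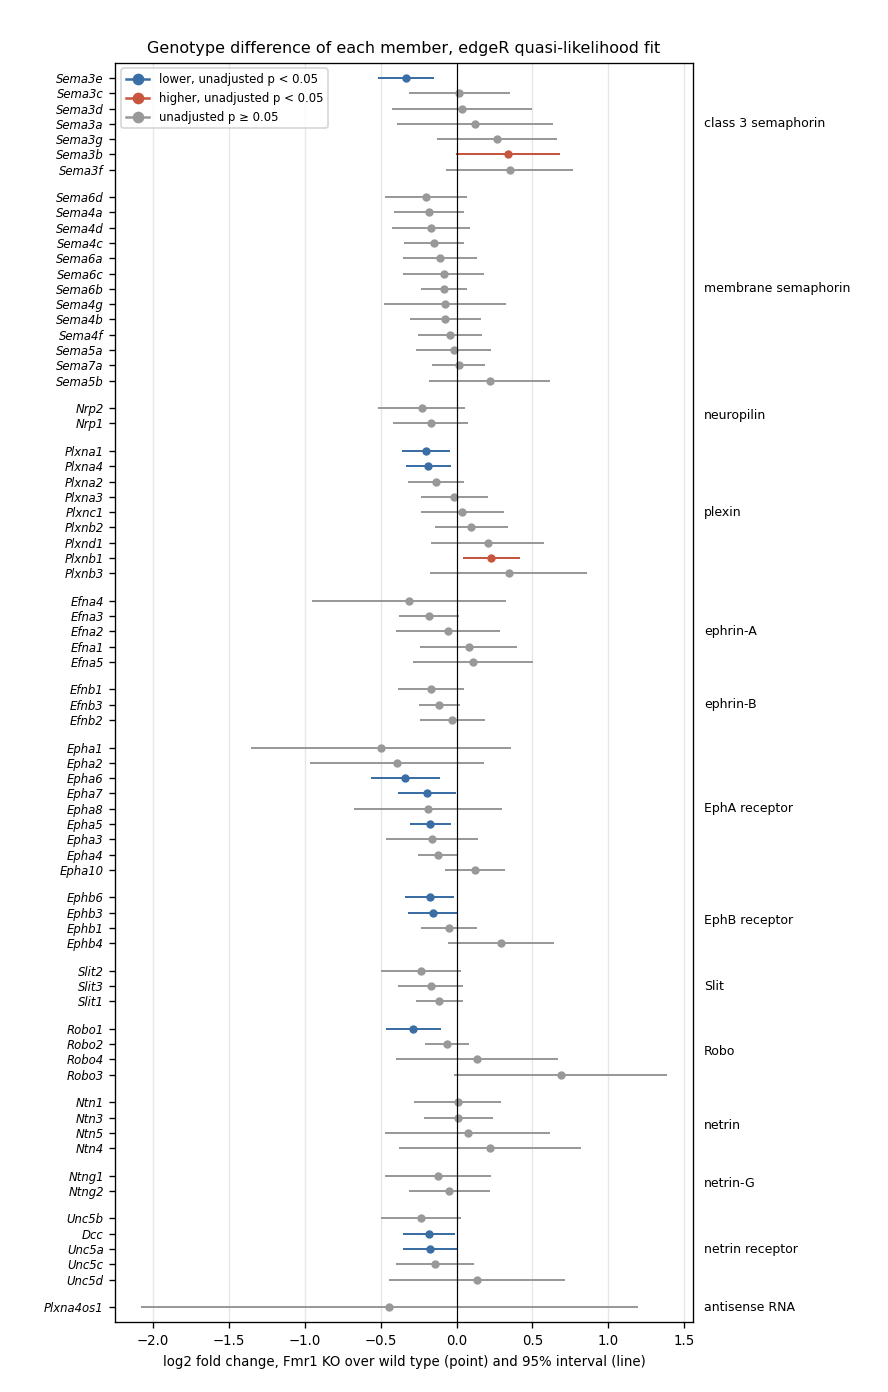
Log2 fold change of each of the 71 members, Fmr1 KO (Fmr1-/y) over wild type, with its 95% interval from edgeR's quasi-likelihood fit, grouped by family; blue marks the 11 members that were lower and red the 2 that were higher at an unadjusted p under 0.05. None of the 71 had an adjusted p under 0.05, and only the intervals of Plxna4os1, Epha1 and Robo3 reach past 2-fold.

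Sema3e (Entrez 20349, chromosome 5 from 14025276 to 14256689), a class 3 semaphorin that binds Plxnd1 without a neuropilin, had the smallest p of all members. Its level was 78.9 CPM in the lowest wild-type library, 87.8 at the median and 95.5 in the highest, and 57.5, 70.3 and 81.7 CPM in Fmr1-/y libraries. All 6 Fmr1-/y libraries were below the wild-type median and 4 were below the lowest wild-type library. The log2 fold change was -0.33 ± 0.085 (SE), a level at 79.5% of wild type, with a 95% interval of -0.51 to -0.15. The unadjusted p was 0.0011 and the adjusted p was 0.261 in edgeR, while DESeq2 gave an adjusted p of 0.0468. Leaving out any one library gave -0.38 to -0.28. Plxnd1, its receptor, had 33.5 to 53.3 CPM in wild-type and 36.8 to 74.6 CPM in Fmr1-/y libraries, with 73.4 and 74.6 CPM in Fmr1-/y replicates 4 and 5 and no more than 44.9 CPM in the other four, and its log2 fold change was 0.20 ± 0.17 (SE).

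The other 6 class 3 semaphorins had log2 fold changes above 0. Sema3b had 15.3 CPM in the lowest, 20.9 at the median and 25.8 in the highest wild-type library, and 20.3, 24.2 and 40.7 CPM in Fmr1-/y libraries. Its log2 fold change was 0.34 ± 0.16 (SE), with an unadjusted p of 0.0493 and an adjusted p of 0.63 in edgeR. The highest value came from Fmr1-/y replicate 1, and without that library the log2 fold change was 0.18. Sema3f, which like Sema3b acts through Nrp2, was at 0.35 ± 0.20 (SE), with its highest level, 8.25 CPM, in the same library. Sema3a, Sema3c, Sema3d and Sema3g were low, with means of 1.69 to 6.18 CPM and log2 fold changes of 0.02 to 0.27.

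The neuropilins, co-receptors of the class 3 semaphorins, were both below wild type on average without reaching an unadjusted p under 0.05. Nrp1 had a median of 198 CPM in wild-type libraries against 183 CPM in Fmr1-/y libraries, with a log2 fold change of -0.17 ± 0.11 (SE). Nrp2 had medians of 76.6 and 58.0 CPM and a log2 fold change of -0.23 ± 0.13 (SE), and its libraries overlapped widely, from 54.5 to 82.7 CPM in wild-type and 44.2 to 81.2 CPM in Fmr1-/y.

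Plexins numbered 9. Class A plexins, the signalling partners of neuropilins and receptors of class 6 semaphorins, were all below 0, although Plxna3 was at 0.01 when libraries were scaled by their totals alone. Plxna1 (Entrez 18844, chromosome 6 from 89316313 to 89362613) had 177 CPM in the lowest, 193 at the median and 213 in the highest wild-type library and 145, 166 and 192 CPM in Fmr1-/y libraries. All 6 Fmr1-/y libraries were under the wild-type median, and the log2 fold change was -0.20 ± 0.073 (SE), with an unadjusted p of 0.0132. Plxna4 (Entrez 243743, chromosome 6 from 32144543 to 32588192) had 234, 251 and 277 CPM in wild-type libraries against 197, 222 and 248 CPM in Fmr1-/y libraries. Again all 6 were under the wild-type median, with a log2 fold change of -0.19 ± 0.068 (SE) and an unadjusted p of 0.0144. Their adjusted p-values in edgeR were 0.464 and 0.475. Plxna2 (-0.13 ± 0.084, SE) and Plxna3 (-0.01 ± 0.10, SE) did not reach that level. Plxna4os1, transcribed from the strand opposite Plxna4 and counted apart from it by strand, had 0.02 to 0.33 CPM in wild-type and 0 to 0.32 CPM in Fmr1-/y libraries, too few reads to resolve a change.

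Class B plexins, receptors of class 4 semaphorins, were all above 0, although Plxnb2 was at -0.15 once a choroid plexus marker score was added to the fit. Plxnb1 (Entrez 235611, chromosome 9 from 109093849 to 109119915), the receptor of Sema4d, had 56.0, 61.6 and 66.02 CPM in wild-type libraries and 59.0, 72.9 and 86.2 CPM in Fmr1-/y libraries, 4 of which were above the highest wild-type library. The log2 fold change was 0.23 ± 0.086 (SE), with an unadjusted p of 0.0163 and an adjusted p of 0.494 in edgeR. Its highest library was again Fmr1-/y replicate 1, and the log2 fold change without it was 0.17, with an unadjusted p of 0.0509. Plxnb2 (0.10 ± 0.11, SE) and Plxnb3 (0.34 ± 0.24, SE) had wider intervals than their fold changes. Plxnc1, the receptor of Sema7a, was at 0.04 ± 0.13 (SE).

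The 13 membrane-bound semaphorins of classes 4 to 7 held no member with an unadjusted p under 0.05. Their log2 fold changes ran from -0.20 for Sema6d to 0.22 for Sema5b, with 11 of 13 below 0 and a median of -0.08. Sema7a, the most abundant per length, had 163, 175 and 200 CPM in wild-type libraries against 147, 182 and 206 CPM in Fmr1-/y libraries, and its log2 fold change was 0.01 with a 95% interval of -0.16 to 0.18. Sema6b and Sema4f, the next in level, were at -0.08 ± 0.068 and -0.04 ± 0.097 (SE). Sema4d, the ligand of Plxnb1, was at -0.17 ± 0.12 (SE), with 28.9 to 45.3 CPM in wild-type and 29.6 to 41.9 CPM in Fmr1-/y libraries. The remaining Sema4a, Sema4b, Sema4c, Sema4g, Sema5a, Sema5b, Sema6a, Sema6c and Sema6d had means of 4.50 to 71.6 CPM.

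Of the 13 Eph receptors 5 were lower at an unadjusted p under 0.05, and 11 had a fold change below 0. With a choroid plexus marker score in the fit none of the 5 kept such a p, the values running from 0.0656 for Epha5 to 0.316 for Ephb3. With the non-neuronal or the CA1 score only Epha6 kept it. All 5 log2 fold changes stayed below 0 with the choroid plexus score. Epha6 went from -0.34 to -0.21, Epha5 from -0.17 to -0.14 and Epha7 from -0.20 to -0.16. Ephb6 went from -0.18 to -0.09 and Ephb3 from -0.16 to -0.08. Epha6 (Entrez 13840, chromosome 16 from 59641433 to 60610911) had 56.6 CPM in the lowest, 63.0 at the median and 75.7 in the highest wild-type library and 38.5, 50.1 and 63.4 CPM in Fmr1-/y libraries. In 4 of the 6 Fmr1-/y libraries it was below every wild-type library, whereas replicate 6 was above the wild-type median. The log2 fold change was -0.34 ± 0.11 (SE), a level at 79.2% of wild type, with an unadjusted p of 0.0051 and an adjusted p of 0.374 in edgeR and of 0.147 in DESeq2.

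Epha5 (Entrez 13839, chromosome 5 from 84054761 to 84417818) had 130, 144 and 154 CPM in wild-type libraries against 119, 122.6 and 140 CPM in Fmr1-/y libraries. Every Fmr1-/y library was under the wild-type median, and the log2 fold change was -0.17 ± 0.062 (SE), with an unadjusted p of 0.0120 and an adjusted p of 0.450 in edgeR. Epha7 (Entrez 13841, chromosome 4 from 28813066 to 28967503) had 300.0, 360.0 and 380 CPM in wild-type libraries against 251, 292 and 379 CPM in Fmr1-/y libraries, so that the genotypes overlapped over most of their range. That overlap rested on wild-type replicate 6, at 300.0 CPM, and Fmr1-/y replicate 3, at 379 CPM. The other wild-type libraries had at least 343.9 CPM and the other Fmr1-/y libraries at most 342.9 CPM. Both overlapping libraries were picked out after seeing the values, and both are in the fit. The log2 fold change of Epha7 was -0.20 ± 0.088 (SE), with an unadjusted p of 0.0396. Epha4 was just outside that level. It had 554, 591 and 621 CPM in wild-type libraries against 482.5, 540 and 601 CPM in Fmr1-/y libraries, 4 of them below every wild-type library, with a log2 fold change of -0.12 ± 0.059 (SE) and an unadjusted p of 0.0525.

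Among the receptors of B type, Ephb6 (Entrez 13848, chromosome 6 from 41603834 to 41620509), which lacks kinase activity, had 57.5, 68.9 and 76.6 CPM in wild-type and 51.7, 62.4 and 63.95 CPM in Fmr1-/y libraries. Its log2 fold change was -0.18 ± 0.074 (SE), with an unadjusted p of 0.0282. Ephb3 (Entrez 13845, chromosome 16 from 21204620 to 21223309), which acts at excitatory synapses of the hippocampus, had 39.4, 41.5 and 45.1 CPM in wild-type and 32.8, 36.9 and 41.9 CPM in Fmr1-/y libraries, with a log2 fold change of -0.16 ± 0.073 (SE) and an unadjusted p of 0.0447. Of these lower Eph receptors, Epha7, Ephb6 and Ephb3 had adjusted p-values of 0.596, 0.548 and 0.618 in edgeR. Epha10, which also lacks kinase activity, and Ephb4, the vascular receptor of ephrin-B2, were the only Eph receptors above 0, at 0.12 ± 0.091 and 0.29 ± 0.16 (SE). With the choroid plexus marker score in the fit Epha10 was at 0.26, with an unadjusted p of 0.0133. Ephb1 was at -0.05 ± 0.084 (SE), and Epha1, Epha2, Epha3 and Epha8 had means under 10 CPM and log2 fold changes of -0.50 to -0.16 with intervals that included 0.

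Ephrins, the ligands of these receptors, held 0 members with an unadjusted p under 0.05 among 8. Efnb3 had 220, 227 and 247 CPM in wild-type libraries against 188, 219 and 234 CPM in Fmr1-/y libraries, with a log2 fold change of -0.11 ± 0.062 (SE). Efna3, the most abundant ephrin of A type per length, had 46.6, 48.1 and 50.7 CPM in wild-type libraries and 32.3, 45.3 and 48.1 CPM in Fmr1-/y libraries. Its Fmr1-/y values were split, with 4 between 42.8 and 48.1 CPM and the others at 32.3 and 37.4, and the log2 fold change was -0.18 ± 0.090 (SE), with an unadjusted p of 0.0634. Efnb1 and Efnb2 were at -0.17 ± 0.10 and -0.03 ± 0.099 (SE). Efna1, Efna2, Efna4 and Efna5 ran from -0.31 to 0.11. Efna5 had 1 wild-type library at 10.02 CPM and 1 Fmr1-/y library at 30.1 CPM, while the other 10 libraries lay between 13.4 and 21.1 CPM.

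Robo1 (Entrez 19876, chromosome 16 from 72027518 to 73047491) had the second smallest p of the members. It had 34.9 CPM in the lowest, 39.3 at the median and 44.5 in the highest wild-type library and 28.7, 31.8 and 37.3 CPM in Fmr1-/y libraries. In 5 of the 6 Fmr1-/y libraries it was below every wild-type library. The log2 fold change was -0.28 ± 0.082 (SE), a level at 82.1% of wild type, with an unadjusted p of 0.0028 and an adjusted p of 0.322 in edgeR and 0.0898 in DESeq2. Robo2, the most abundant Robo per length, differed less, at -0.06 with a 95% interval of -0.20 to 0.08. The unadjusted p of Robo3, at 0.0529, rested on Fmr1-/y replicate 5, which had 12.4 CPM while the other 11 libraries had 2.28 to 4.90 CPM, and its log2 fold change was 0.69 with that library and 0.16 without it. Robo4, known from blood vessels, had a mean of 1.51 CPM.

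The Slits, ligands of Robo1 and Robo2, all had fold changes below 0 without reaching an unadjusted p under 0.05. Slit1 had 109, 122.9 and 146 CPM in wild-type libraries against 101, 117 and 122 CPM in Fmr1-/y libraries, with a log2 fold change of -0.11 ± 0.070 (SE). Slit3 was at -0.17 ± 0.098 (SE) and Slit2 at -0.24 ± 0.12 (SE). The highest of the Slit2 values, 21.7 CPM, was wild-type replicate 4.

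Dcc (Entrez 13176, chromosome 18), the receptor through which netrin-1 attracts axons, had 36.6 CPM in the lowest, 41.3 at the median and 44.8 in the highest wild-type library and 31.7, 36.9 and 40.0 CPM in Fmr1-/y libraries. All 6 Fmr1-/y libraries were under the wild-type median, with a log2 fold change of -0.18 ± 0.078 (SE) and an unadjusted p of 0.0340. Unc5a (Entrez 107448, chromosome 13 from 54945151 to 55006018), the most abundant repulsive netrin receptor per length, had 130, 142 and 151 CPM in wild-type and 100.5, 130 and 148 CPM in Fmr1-/y libraries. Its log2 fold change was -0.18 ± 0.082 (SE), with an unadjusted p of 0.0460, and the genotypes overlapped in 3 Fmr1-/y libraries. The adjusted p-values of Dcc and Unc5a in edgeR were 0.575 and 0.621. Unc5b (-0.23 ± 0.12, SE) and Unc5c (-0.14 ± 0.12, SE) were below 0 without reaching that level, and Unc5d was at 0.14 ± 0.27 (SE), with 10.9 to 39.9 CPM among Fmr1-/y libraries.

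Netrins themselves were low, with means of 2.25 to 7.73 CPM, and their log2 fold changes were between 0.01 for Ntn1 and Ntn3 and 0.22 for Ntn4, with 95% intervals that included 0. Ntn5 was the highest per length, with 1.74 CPM per kilobase. Ntn1 had 5.98 to 9.43 CPM in wild-type and 5.92 to 9.84 CPM in Fmr1-/y libraries. The netrin-Gs, which are lipid-anchored and bind the Lrrc4 family in place of Dcc, were at -0.12 ± 0.16 (Ntng1) and -0.05 ± 0.12 (Ntng2, SE).

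**Figure D3:**
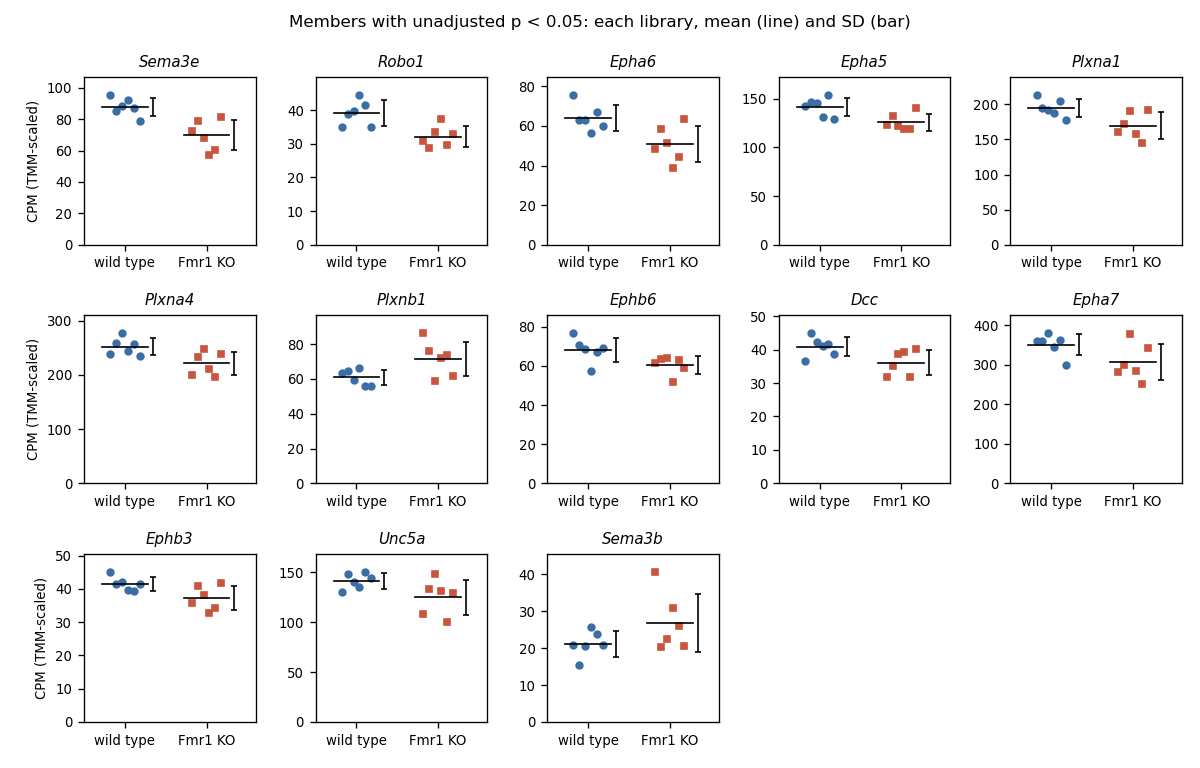
Level in each library, as TMM-scaled CPM on axes that start at 0, of the 13 members with an unadjusted p under 0.05, ordered by p, with circles for wild-type and squares for Fmr1 KO (Fmr1-/y) libraries, lines for means and bars for the SD over 6 libraries. In every panel the genotypes overlap; Robo1 comes nearest to a separation, with 5 of 6 Fmr1 KO libraries below every wild-type library.

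Per library, the sum over all receptors was 2626 to 2939 CPM in wild-type libraries against 2384 to 2819 CPM in Fmr1-/y libraries, with medians of 2873 and 2601. The sum over ligands was 1355 to 1470 CPM and 1234 to 1422 CPM, with medians of 1440 and 1376. The median log2 deviation of the 33 receptors from their wild-type mean ran from -0.12 to 0.06 in wild-type libraries and from -0.27 to -0.02 in Fmr1-/y libraries. Receptor medians therefore overlapped between genotypes: wild-type replicates 1 and 6 lay among the Fmr1-/y libraries. Those of the 37 ligands overlapped more, from -0.16 to 0.09 and from -0.13 to 0.12.

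**Figure D4:**
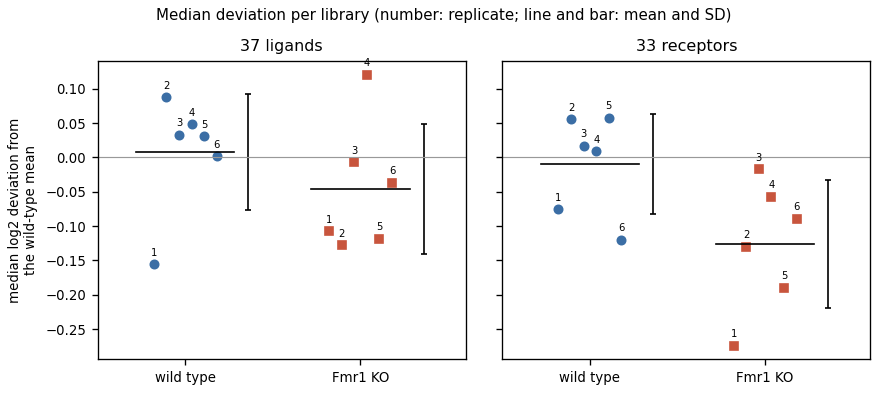
Median log2 deviation of the 37 ligands (left) and the 33 receptors (right) from the wild-type mean of each gene, 1 point per library, with the replicate number beside it, lines for means and bars for the SD over 6 libraries. All 6 Fmr1 KO (Fmr1-/y) receptor medians are below 0, from -0.27 to -0.02, and wild-type replicates 1 and 6 fall within their range.

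Choroid plexus marker levels are set beside the members because they were higher in Fmr1-/y libraries. Sema3b, Sema3f and Plxnb2 all had their highest level in Fmr1-/y replicate 1, the library with the most choroid plexus RNA, at 40.7, 8.25 and 130.0 CPM. When the mean log2 level of the choroid plexus markers was added to the edgeR fit as a covariate, the log2 fold change of Sema3b went from 0.34 to -0.03 and that of Sema3f from 0.35 to -0.11. Robo1 was then at -0.37, with an unadjusted p of 0.0006, and Sema3e at -0.30, with an unadjusted p of 0.0075. Epha6 was at -0.21, with an unadjusted p of 0.0766. In that fit 6 members were lower and 2 higher at an unadjusted p under 0.05, and with a score over all non-neuronal markers 6 were lower and 3 higher. With the CA1 pyramidal markers as the covariate 15 were lower and 1 was higher. The share of all genes called at that p is given here only for the fit with all libraries and no covariate. These counts alone therefore do not show that the members changed between fits. Of the 13 members with an unadjusted p under 0.05 without a covariate, 2 kept it with the choroid plexus score, 3 with the non-neuronal score and 4 with the CA1 score. Sema3e and Robo1 had it in each of these 3 fits. So did Slit2, Unc5b and Sema4a, which had not reached it without a covariate. Slit2 was at -0.41 with the non-neuronal score, -0.46 with the choroid plexus score and -0.43 with the CA1 score. Epha10 and Robo3 were higher at an unadjusted p under 0.05 with 2 of the scores, also without having reached it before. Epha10 was at 0.25 with the non-neuronal score (unadjusted p 0.0057) and 0.26 with the choroid plexus score (0.0133). Robo3, with 1 outlying Fmr1-/y library, was at 0.94 (0.0156) and 0.89 (0.0406). Without Fmr1-/y replicate 1, 9 members were lower and 2 higher. Some of the markers behind these scores themselves differed between genotypes, so the fits cannot tell genotype from the share of other cells. The part of other cells in these differences was not tested.

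**Figure D5:**
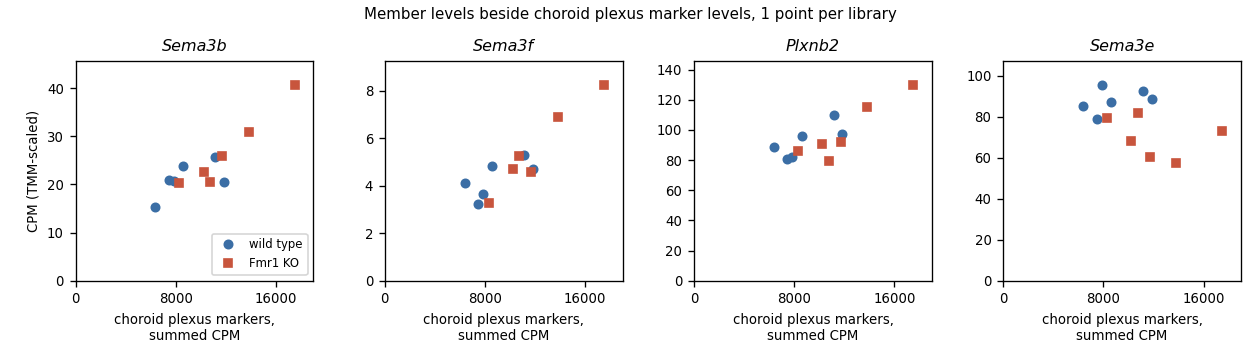
Levels of Sema3b, Sema3f, Plxnb2 and Sema3e (TMM-scaled CPM, axes from 0) against the summed CPM of 5 choroid plexus markers, 1 point per library, with circles for wild-type and squares for Fmr1 KO (Fmr1-/y). The library with the most choroid plexus RNA, Fmr1 KO replicate 1, has the highest Sema3b, Sema3f and Plxnb2, while its Sema3e lies inside the range of the other Fmr1 KO libraries.

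Genes that act beside the members were read from lists. Of 16 extracellular partners, such as Neo1, Dscam and the netrin-G ligands, 3 were lower at an unadjusted p under 0.05, beside 3.67% of all genes, 0 were higher, beside 4.29%, and none passed the adjusted threshold. Their median log2 fold change was -0.10. Dscam, an alternative netrin receptor, had 40.2, 42.7 and 46.4 CPM in wild-type and 31.9, 36.3 and 40.0 CPM in Fmr1-/y libraries. The genotypes did not overlap, as in 0.623% of all genes, but the nearest libraries were at 40.2 and 40.0 CPM. Dscam had a log2 fold change of -0.25 ± 0.069 (SE), an unadjusted p of 0.0022 and an adjusted p of 0.301 in edgeR. Its relative Dscaml1 was at -0.25 ± 0.079 (SE), and Lrrc4, a partner of netrin-G2, at -0.16 ± 0.057 (SE). Dscam and Dscaml1 kept an unadjusted p under 0.05 with each of the 3 marker covariates, and Lrrc4 with none, at 0.0517 to 0.125. Of 36 intracellular effectors, 3 were lower (Mical2, Srgap1 and Arhgap39, with log2 fold changes of -0.28 to -0.19) and 2 were higher (Mical1 and Farp1, at 0.25 and 0.22), beside the same 3.67% and 4.29% of all genes, with a median of -0.03. A share of 2 in 36 is near that background. Mical enzymes oxidise actin downstream of plexins, and Srgap1 and Arhgap39 act downstream of Robo receptors. The effector count rests on single libraries, with 1 to 5 lower and 1 to 2 higher when each library is left out. It was 1 lower without wild-type replicate 4 or 5 or Fmr1-/y replicate 1 or 5, 2 without wild-type replicate 3 or Fmr1-/y replicate 2, and 5 without wild-type replicate 1 or 6 or Fmr1-/y replicate 6. The higher count was 1 without wild-type replicate 2, 3, 4 or 6 or Fmr1-/y replicate 1 or 5. The share of all genes in these left-out fits is not given here.

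The members are large genes. Their median genomic span was 46.3 kb, beside 21.6 kb over tested genes, and the median length of their merged exons was 6745 bases, beside 4197. The 11 members that were lower had a median span of 231 kb and a median level of 10.9 CPM per kilobase, whereas the other members had medians of 38.0 kb and 2.61 CPM per kilobase. Single genes departed from this: Ephb6 and Ephb3, both lower, span less than 38.0 kb, and Epha4, Efnb3 and Sema7a, the highest in level per length, were not among the lower members. All 11 lower members had a mean of at least 10 CPM, and every member under 10 CPM is among the others. The difference in level therefore follows in part from how the 11 were picked. No part of span or level in the fold changes was tested.

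Promoter windows, the 250 bases upstream of the start, were found for 60 of the 71 members and for 13825 tested genes. A GC box (GGGCGG, either strand) was present in 73.3% of the members' windows and in 53.4% of those of tested genes. The TATA box letters TATAAA were in 3.33% and 7.74%, the CCAAT letters in 26.7% and 35.9%, and the cyclic AMP response element TGACGTCA in 1.67% and 2.39%. None of these 4 motifs contains another. Median CpG counts were 16 for members and 14 for tested genes. These matches describe the letters of the windows and not the binding of any factor.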

How the data were processed

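Ribosome-bound polyadenylated RNA was converted to stranded libraries and sequenced as single reads of 50 bases, 4 libraries to a lane. Which libraries shared a lane is not named in the sources used here, so no lane term could be fitted. The authors aligned the reads to mm10 (the same build as GRCm38) with TopHat2 2.1.1 and Bowtie2 2.2.8, discarding alignments with more than 3 mismatches, counted them per gene by strand with HTSeq 0.6.1p1 in union mode, and deposited raw counts per gene without normalization. bcl2fastq 2.17 was used for demultiplexing.

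The deposited counts were used as they stand. Genes reaching 15 reads in total over the 12 libraries (17823) were fitted with edgeR 4.0.16 in R 4.3.3 (TMM scaling, quasi-likelihood test, two-sided, 6 against 6 libraries, no block or covariate, Benjamini-Hochberg adjustment over all genes, threshold 0.05). DESeq2 1.42.0, limma 3.58.1 voom, other scalings and filters, covariates and left-out libraries were alternatives; the CA1 and choroid plexus covariates were chosen after seeing the data. The scripts were tested on simulated data. The SE is the log2 fold change divided by the square root of F, and intervals use the t distribution. Levels are TMM-scaled CPM, given per kilobase of merged GENCODE M21 exons between genes. Coordinates (GRCm38.p6), promoter windows and starts are from RefSeq.

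Members and lists were chosen with earlier results of these data known, and marker and pathway lists come from textbook knowledge. Members were named if the unadjusted p was under 0.05, if either tool passed them, if they led their family or the whole set in level per length, or as partners of these, with the rest named once by family. One Eph receptor gene is not reported here.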

Additional observations from a re-analysis of the deposited data

Results flagged for a closer look

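In 9 of 142 groups of 6 libraries (71 members in each genotype), 1 library lay further from the rest than Dixon's 95% limit allows on the gap to the nearest library divided by the whole range. Chance alone flags about 1 in 20 groups, or 7.1 here, so the number of such libraries is near what chance gives.

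Several of these values came from the same 2 libraries. In wild-type replicate 1, Efna5 had 10.02 CPM beside 17.8 to 21.1 CPM in the other wild-type libraries (ratio of gap to range 0.700), Plxnc1 had 34.8 CPM beside 49.97 to 52.5 CPM (0.859) and Sema4b had 20.8 CPM beside 24.7 to 26.6 CPM (0.675). In Fmr1-/y replicate 4, Efna5 had 30.1 CPM beside 13.4 to 19.2 CPM in the other Fmr1-/y libraries (0.656), Plxnc1 had 70.4 CPM beside 38.9 to 50.6 CPM (0.631) and Slit1 had 101 CPM beside 115 to 122 CPM (0.635). Efna5, a ligand of EphA receptors, and Plxnc1 were thus low in 1 wild-type library and high in 1 Fmr1-/y library.

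Robo3 in Fmr1-/y replicate 5 had 12.4 CPM beside 2.48 to 4.90 CPM (0.756). Slit2 in wild-type replicate 4 had 21.7 CPM beside 14.1 to 16.7 CPM (0.655). Efna4 in Fmr1-/y replicate 6 had 0.95 CPM beside 0.47 to 0.55 CPM (0.831), at a level where each library holds few reads.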

How the results depend on the processing

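No member had an adjusted p under 0.05 in edgeR under any scaling, filter, covariate, block or left-out library, at thresholds of 0.1 and 0.01, or in limma voom. DESeq2 called 1 at 0.05 (Sema3e, at -0.33), and Robo1, with an adjusted p of 0.0898 in DESeq2, was under 0.1 there. The count lower at an unadjusted p under 0.05, 11 in the main fit, was 7 with library totals alone as the scaling, 6 with either the non-neuronal or the choroid plexus covariate, and 6 to 15 with each library left out, the lowest without wild-type replicate 2. The higher count, 2 in the main fit, was 1 with DESeq2's size factors, filterByExpr, at least 10 reads in every library, limma voom, robust fitting or the CA1 covariate, 3 with at least 1 read in total or the non-neuronal covariate, and 1 to 4 with each library left out. Library totals shifted the median of all genes by under 0.1. Shares of all genes at an unadjusted p under 0.05 are given for the main fit only. The counts of the other fits therefore cannot be read against a background of their own. Effectors lower numbered 1 with library totals and 5 with the choroid plexus covariate, and effectors higher 3 with library totals, the CA1 or the choroid plexus covariate and 1 with the replicate block.

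The replicate numbers are shared by the genotypes. With the number as a block (the replicate block fit), 16 members were lower, 2 higher and 0 past the adjusted threshold, with a median of -0.11. The share of all genes called in that fit is not given here. Deviations of same-numbered libraries correlated at -0.08 to 0.09 over all genes, with 0 of 6 pairs over 0.1, and at -0.44 to 0.60 over the 5987 genes with a mean log2 CPM over 5, with 3 of 6 pairs over 0.1. Since not every pair was over 0.1 in either set, the numbers were not taken to pair the pools.

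Over 528 comparisons of 22 named members, 518 kept direction and side of the adjusted threshold and 9 reversed. No member passed that threshold in the main fit, so keeping its side was nearly fixed in advance. Of 13 members with an unadjusted p under 0.05, only 2, 3 or 4 kept it with a marker covariate. Sema3f, Plxnb2 and Plxna3, whose reversals are given above, are not among the 22. Among the 22, Sema3b went to -0.031 with the choroid plexus covariate. Ntng2 went to 0.091 and 0.099 with the non-neuronal and choroid plexus covariates. With each library left out, Ntng2 ran from -0.12 to 0.040 (without wild-type replicate 2), Ntn5 from -0.11 (without wild-type replicate 4) to 0.22, and Sema7a from -0.029 to 0.064, below 0 in 4 of these fits. Causes were not tested. With the longest transcript as the length, Epha4 was at 89.2, Robo2 at 13.2, Sema3e at 11.5, Ntng2 at 7.61 and Nrp1 at 51.3 CPM per kilobase, and the leading member of every family kept its place.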
